A study of Mus musculus with 8 samples.

Results

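The genes of DNA replication and S phase entry were followed as 37 genes listed by name: the helicase that opens the double strand, the proteins that license origins, the replicative polymerases with their clamp and clamp loader, the proteins of the lagging strand and the fork, the enzymes of nucleotide supply, and the E cyclins with Uhrf1. Each was read through its brightest probe set annotated to that gene alone, out of 17097 genes with such a probe set. Of these, 13939 genes lay above the median of all values (log2 4.23) on at least 2 arrays and were tested, among them 36 of the 37. The probe set of Ccne2, one of the E cyclins, stayed below background on all 8 arrays, with values of 2.79 and 2.78 in GOF papilloma, against 2.67 and 2.83 in control papilloma, and 4.01 and 3.82 in KO carcinoma, against 3.69 and 3.74 in control carcinoma. The other 36 exceeded the filter level on every carcinoma array, where that level lies below background. In papilloma 26 of the 36 exceeded it on both GOF arrays and 22 on both control arrays.

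The samples were mouse skin tumour cells sorted by flow cytometry on Epcam, a surface protein of epithelial cells, and hybridised to 8 Affymetrix mouse genome PM strip arrays, 2 in each of 4 groups. GOF papilloma overexpressed NR2F2, a transcription factor of the nuclear receptor family, in a benign skin tumour, and was set against control papilloma labelled NR2F2 WT. KO carcinoma, a malignant squamous tumour, carried NR2F2fl/fl alleles and K5CreER, a tamoxifen-dependent recombinase driven from the keratin 5 promoter of basal keratinocytes. It was set against control carcinoma, which lacked Cre and is labelled NR2F2 WT. The source of the overexpressed gene, the tumour induction, the ages and the number of animals behind an array are not given in the labels, so every p-value covers array-to-array spread alone. Values are log2 intensities, and the papilloma and carcinoma columns are on different scales (array medians of 3.12 to 3.16 and 5.08 to 5.15), so no level is compared between the tumour types.

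DNA replication starts when the origin recognition complex, Cdc6 and Cdt1 load the ring of Mcm2 to Mcm7 onto DNA. Cdc45 and the GINS complex then turn the ring into a moving helicase, polymerase alpha with primase starts each strand, and polymerases delta and epsilon extend it behind the sliding clamp Pcna. Most of these genes are transcribed in a wave before S phase under the E2F factors, which the retinoblastoma family holds back until cyclin-dependent kinases release them. In the epidermis the basal layer and the cells of a tumour that keep dividing express them, and they are shut off as keratinocytes differentiate.

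Nr2f2 followed the labels. It stood at 11.43 and 11.47 in GOF papilloma, against 2.80 and 2.55 in control papilloma, where both control arrays were below background, and at 4.77 and 4.996 in KO carcinoma, against 7.93 and 8.14 in control carcinoma. The difference in carcinoma was -3.15 (SE 0.16, limma adjusted p = 0.00475). Between replicates the correlation was 0.975 to 0.985 over the 36 replication genes. The 3' minus 5' difference of the Gapdh control probe sets, a sign of RNA integrity, was 0.09 to 0.12 in GOF papilloma, against 0.10 to 0.17 in control papilloma, and -0.12 to -0.09 in KO carcinoma, against -0.10 to -0.07 in control carcinoma.

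In KO carcinoma the replication genes stood above the controls as a body, and in GOF papilloma most of them did too, but no single gene passed the test in either comparison. The genes were listed with earlier results of these data known, and they share the same arrays. Counts over them are therefore a description and not a test. The log2 fold change was positive for 36 of 36 genes in the KO, where 51% of all genes tested were, with a median of 0.66 and a range of 0.13 to 1.20, against a median of 0.01 over all genes. In GOF papilloma it was positive for 31 of 36, where 53.6% of all genes were, with a median of 0.42 and a range of -0.19 to 1.05, against 0.02 over all genes. It was positive in both comparisons for 31 of the 36, where 28.2% of all genes were, although Nr2f2 was gained in one tumour type and lost in the other. Both KO arrays lay above both controls for 32 of 36 genes (23.8% of all genes), and both GOF arrays did for 21 of 36 (27.3% of all genes). Both held for 18 of the 36, where 7.4% of all genes did so. These papilloma counts include Cdc6, which was below background there. In these bulk samples a larger share of cells in S phase, more RNA per cell and a different mix of cell types cannot be told apart. Markers of other cell types also differed between the papilloma groups, as given below.

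At least 1.5-fold in all 4 array pairs was reached by 10 of the 36 in the KO (1.42% of all genes) and by 3 of the 36 in GOF papilloma (3.9% of all genes). The 10 were Mcm2, Mcm10, Gins1, Pola1, Prim1, Pole, Pole2, Rfc4, Rfc5 and Tk1, and the 3 were Pold2, Tipin and Rrm1. The filter level lies below background in carcinoma, so the shares over all genes include genes not detected there. All of the 36 were above background on both KO arrays. An unadjusted limma p under 0.05 with a higher value was found for 23 of the 36 in the KO (8.34% of all genes) and for 14 of the 36 in GOF papilloma (9.94% of all genes). After Benjamini-Hochberg adjustment over all genes at a threshold of 0.05, limma called none of the 36 in either comparison, with smallest adjusted p-values of 0.122 in the KO and 0.0793 in GOF papilloma. Over all 13939 genes it called 0% higher and 0.0143% lower in the KO, where 1163 were higher and 758 lower at an unadjusted p under 0.05. In GOF papilloma it called 0.76% higher and 0.452% lower. Adjusted p-values below are from this fit.

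**Figure D1:**
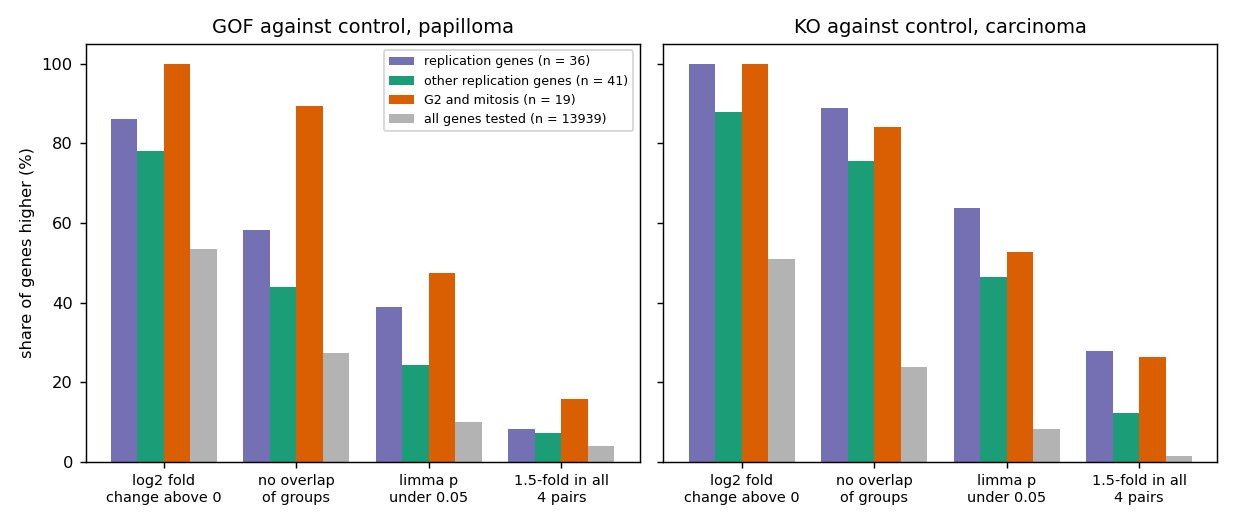
Share of genes (percent, vertical axis from 0) that were higher by each of 4 rules, for GOF against control papilloma on the left and KO against control carcinoma on the right. Bars stand for the 36 replication genes, 41 other replication genes, 19 genes of G2 and mitosis and all 13939 genes tested. In both panels the bars of the 3 lists stand above the bar of all genes.

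The 250 bases before the annotated start of 5 genes are printed as examples picked by name. Each had both KO arrays above both controls, as did 32 of the 36 in all. An E2F site is a known element that times such genes to S phase. E2F-type matches are more common among these examples than in the list, where 13 of 31 genes with a window had one. Mcm5 and Mcm6 are subunits of the helicase, Cdc6 loads it and Pola1 is the catalytic subunit of polymerase alpha. Tk1, thymidine kinase, had a KO fold change of like size but holds no E2F-type match. Capitals mark E2F-type matches, and all stretches are from RefSeq on GRCm38.p6, read 5′ to 3′ on the strand of the gene. The Mcm5 stretch (chr8:75109259-75109508, plus strand) has a pair of overlapping matches that start 153 and 149 bases before the start, and the Mcm6 stretch (chr1:128359706-128359955, minus strand) has 3, which start 110, 106 and 47 bases before it. The match of Cdc6 (chr11:98907901-98908150, plus strand) and that of Pola1 (chrX:93632156-93632405, minus strand) each start 138 bases before it. The Tk1 stretch lies at chr11:117826015-117826264 on the minus strand.
Mcm5: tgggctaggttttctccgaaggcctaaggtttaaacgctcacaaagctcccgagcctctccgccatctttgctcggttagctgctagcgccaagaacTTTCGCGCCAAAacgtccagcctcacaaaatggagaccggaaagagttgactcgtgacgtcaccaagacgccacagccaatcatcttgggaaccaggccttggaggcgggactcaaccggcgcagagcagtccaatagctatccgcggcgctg
Mcm6: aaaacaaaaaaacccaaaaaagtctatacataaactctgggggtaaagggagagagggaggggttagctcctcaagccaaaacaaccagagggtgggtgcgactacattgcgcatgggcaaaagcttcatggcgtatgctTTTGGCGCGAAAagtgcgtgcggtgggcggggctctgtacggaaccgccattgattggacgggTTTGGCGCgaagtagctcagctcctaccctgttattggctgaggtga
Cdc6: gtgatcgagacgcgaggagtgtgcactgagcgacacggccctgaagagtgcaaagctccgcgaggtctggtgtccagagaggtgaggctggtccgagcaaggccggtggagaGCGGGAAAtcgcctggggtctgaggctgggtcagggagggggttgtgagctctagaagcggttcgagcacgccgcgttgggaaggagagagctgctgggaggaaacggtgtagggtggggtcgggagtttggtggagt
Pola1: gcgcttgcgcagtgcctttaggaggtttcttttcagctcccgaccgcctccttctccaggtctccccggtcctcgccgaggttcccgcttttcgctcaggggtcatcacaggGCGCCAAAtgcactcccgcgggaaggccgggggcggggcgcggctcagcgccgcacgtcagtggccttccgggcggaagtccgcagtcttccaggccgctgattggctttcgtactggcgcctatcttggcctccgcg
Tk1: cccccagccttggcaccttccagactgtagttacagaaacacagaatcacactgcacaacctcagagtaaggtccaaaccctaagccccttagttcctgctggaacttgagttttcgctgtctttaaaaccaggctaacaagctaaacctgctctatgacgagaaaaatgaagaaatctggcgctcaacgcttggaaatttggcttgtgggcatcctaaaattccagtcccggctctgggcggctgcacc

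The motif was searched as TTTCCCGC, TTTCGCGC, TTTGCCGC or TTTGGCGC on both strands of windows of 300 bases, 250 before and 50 after the start. RefSeq windows were found for 31 of the 37 genes, and not for Ccne2, Gins1, Gins2, Mcm4, Pole and Tipin. A match was found in 13 of the 31 (41.9%), against 466 of 11168 tested genes with a window (4.2%). These were Cdc6, Cdt1, Lig1, Mcm3, Mcm5, Mcm6, Mcm7, Orc1, Pola1, Pold1, Pole2, Rfc3 and Uhrf1. CCAAT, the letters bound by NF-Y, was found in 58.1% of the 31, against 42% of tested genes, and TTTGAA, the core of the CHR element of late cell cycle genes, in 12.9%, against 14.7%. A match is a description of letters and not of binding. The 13 genes with an E2F-type match had a median log2 fold change of 0.80 in the KO and 0.24 in GOF papilloma. The 18 tested genes with a window and no match had medians of 0.63 in the KO and 0.53 in GOF papilloma, so the order of the medians differed between the comparisons.

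**Figure D2:**
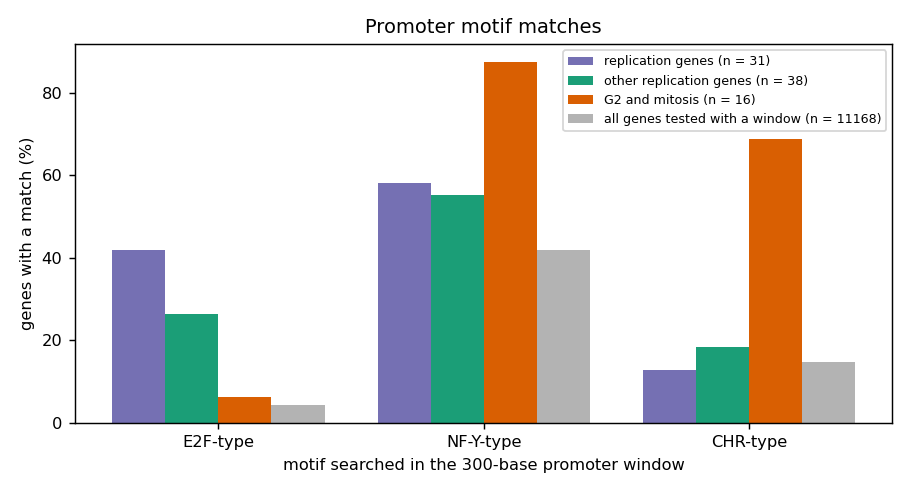
Share of genes (percent, vertical axis from 0) whose 300-base window holds at least 1 match of each motif family, on either strand. Bars stand for 31 replication genes, 38 other replication genes, 16 genes of G2 and mitosis and 11168 tested genes with a window. E2F-type matches stand at 41.9% in the replication genes, against 4.2% of tested genes, and CHR-type matches are found in 68.8% of the mitosis genes.

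The helicase genes were higher on both arrays of KO carcinoma than on both controls in 10 of 10 cases, with a median log2 fold change of 0.83. On both arrays of GOF papilloma they were so in 9 of 10, with a median of 0.47. Over all genes tested the shares were 23.8% in the KO and 27.3% in GOF papilloma. Each class count of separated genes below stands beside these shares. Mcm2 to Mcm7 form the ring itself. Mcm2 stood at 9.17 and 9.61 in KO carcinoma, against 8.26 and 8.53 in control carcinoma, a log2 fold change of 0.99 (SE 0.19, adjusted p = 0.13), or 1.99-fold. In papilloma Mcm2 stood at 7.41 and 7.26 in GOF papilloma, against 6.90 and 6.75 in control papilloma, with a log2 fold change of 0.51 (SE 0.19, adjusted p = 0.26). The groups did not overlap in either tumour type.

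Mcm5 stood at 10.71 and 11.09 in KO carcinoma, against 9.96 and 10.24 in control carcinoma, a log2 fold change of 0.80 (SE 0.19, adjusted p = 0.172). For Mcm5 the papilloma values were 9.30 and 9.24 in GOF papilloma, against 8.50 and 8.80 in control papilloma, a log2 fold change of 0.62 (SE 0.19, adjusted p = 0.179). Mcm3 stood at 9.54 and 9.85 in KO carcinoma, against 8.69 and 8.99 in control carcinoma, a log2 fold change of 0.86 (SE 0.18, adjusted p = 0.144). For Mcm3 the papilloma values were 6.81 and 6.55 in GOF papilloma, against 6.17 and 6.07 in control papilloma, a log2 fold change of 0.56 (SE 0.18, adjusted p = 0.2). Both genes kept a gap between all 4 array pairs in each tumour type. Mcm6 stood at 8.45 and 8.64 in KO carcinoma, against 7.92 and 7.42 in control carcinoma, a log2 fold change of 0.88 (SE 0.19, adjusted p = 0.15). For Mcm6 the papilloma values were 5.23 and 5.37 in GOF papilloma, against 4.92 and 4.90 in control papilloma, a log2 fold change of 0.39 (SE 0.19, adjusted p = 0.369). For Mcm4 the values were 9.32 and 9.66 in KO carcinoma, against 8.80 and 8.90 in control carcinoma, a log2 fold change of 0.64 (SE 0.23, adjusted p = 0.29). For Mcm4 the papilloma values were 4.80 and 4.19 in GOF papilloma, against 4.14 and 4.13 in control papilloma, a log2 fold change of 0.36 (SE 0.23, adjusted p = 0.498). For Mcm4, GOF replicate 1 stood alone and GOF replicate 2 lay next to the controls. Mcm7 stood at 8.14 and 8.02 in KO carcinoma, against 7.71 and 7.77 in control carcinoma, a log2 fold change of 0.34 (SE 0.36, adjusted p = 0.784). For Mcm7 the papilloma values were 5.71 and 6.61 in GOF papilloma, against 5.48 and 6.34 in control papilloma, a log2 fold change of 0.25 (SE 0.36, adjusted p = 0.82), and the 2 arrays of each papilloma group were further apart than the group means.

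Gins1, a subunit of the GINS complex, had the largest fold of the helicase genes in both comparisons. Its values were 8.91 and 8.73 in KO carcinoma, against 7.65 and 7.68 in control carcinoma, a log2 fold change of 1.16 (SE 0.26, adjusted p = 0.159), or 2.23-fold. For Gins1 the papilloma values were 6.26 and 5.998 in GOF papilloma, against 5.57 and 4.78 in control papilloma, a log2 fold change of 0.96 (SE 0.26, adjusted p = 0.139), or 1.94-fold. All 4 array pairs were separated in each tumour type, although the control papilloma arrays were themselves apart. Mcm10, which helps to activate the ring, had log2 fold changes of 0.90 (SE 0.17, adjusted p = 0.128) in the KO and 0.55 (SE 0.17, adjusted p = 0.179) in GOF papilloma. Cdc45, which joins the ring to make it active, had log2 fold changes of 0.49 (SE 0.19) in the KO and 0.32 (SE 0.19) in GOF papilloma. The papilloma groups of Cdc45 were separated by a narrow gap of 0.023. Gins2 had log2 fold changes of 0.42 (SE 0.24) in the KO and 0.43 (SE 0.24) in GOF papilloma.

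**Figure D3:**
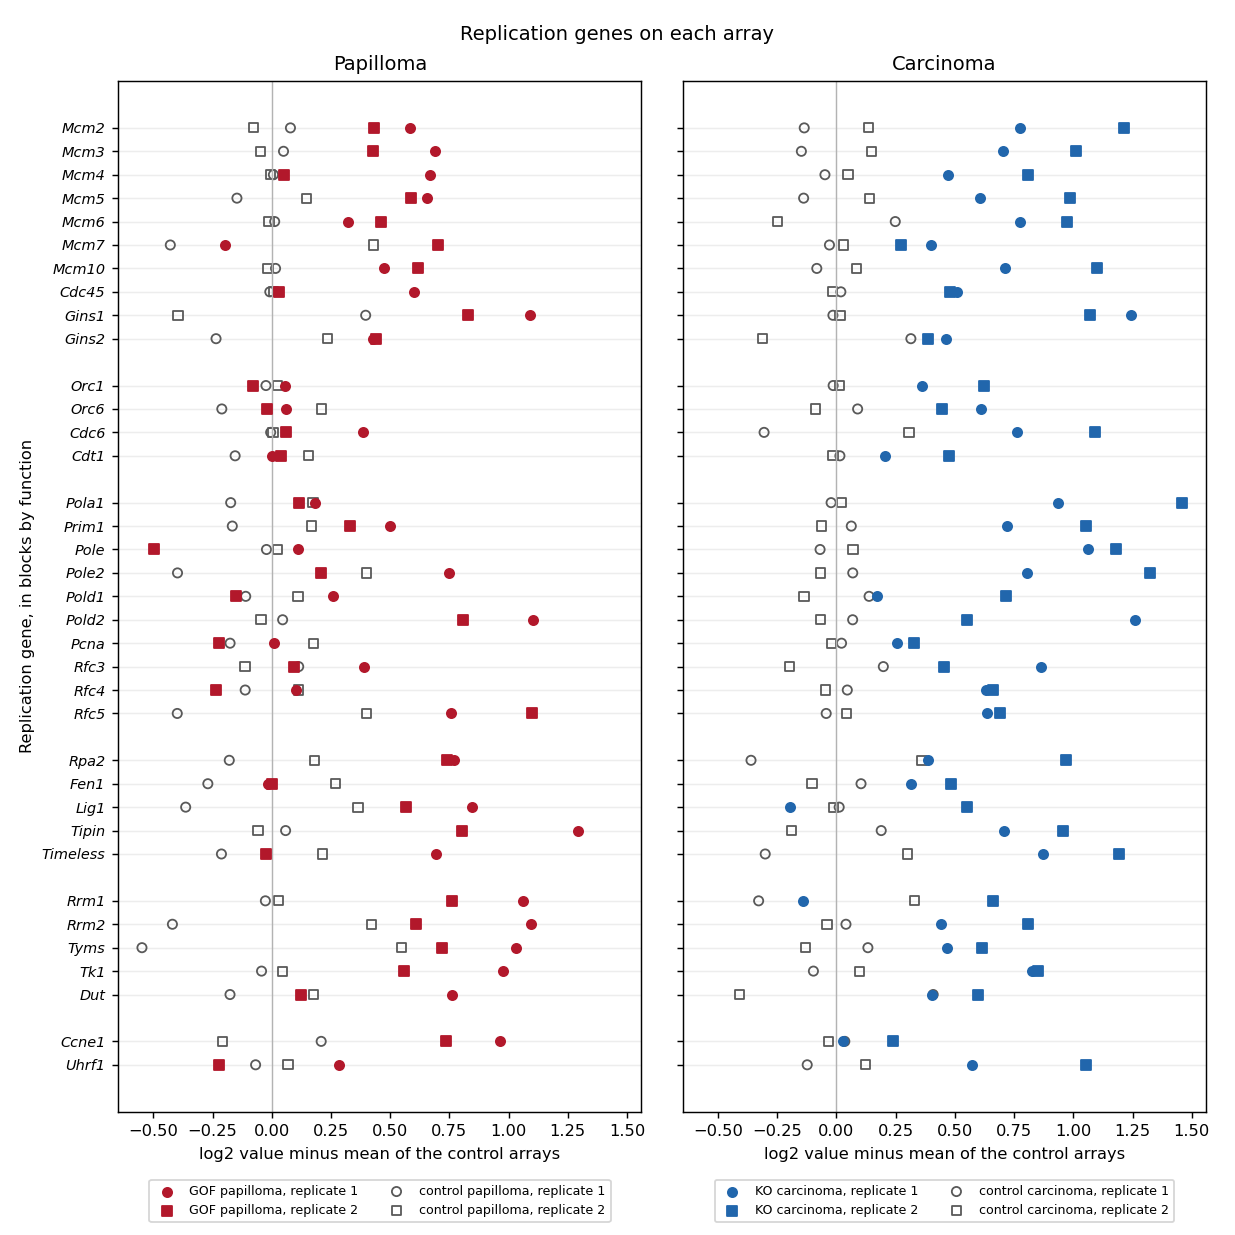
Each of the 36 replication genes on each array, as the log2 value minus the mean of the 2 control arrays of the same tumour type (horizontal axis), with papilloma on the left and carcinoma on the right. Filled symbols are GOF or KO arrays, open symbols control arrays, circles replicate 1 and squares replicate 2. In carcinoma the filled symbols of 32 genes lie right of both open ones, and in papilloma those of 21 genes do.

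The origin licensing genes had a median log2 fold change of 0.51 in KO carcinoma, with both KO arrays above both controls for 4 of 4. In GOF papilloma their median was 0.02, with 1 of 4 separated, Cdc6, which was below background there. Cdc6, the loader of the ring, stood at 5.97 and 6.30 in KO carcinoma, against 4.90 and 5.51 in control carcinoma, a log2 fold change of 0.93 (SE 0.24, adjusted p = 0.19), or 1.9-fold. One of the control carcinoma arrays had Cdc6 below background. In papilloma Cdc6 was below background on all arrays, with 3.11 and 2.79 in GOF papilloma, against 2.73 and 2.74 in control papilloma, and no fold is given. Orc6, a subunit of the origin recognition complex, stood at 8.52 and 8.35 in KO carcinoma, against 7.996 and 7.82 in control carcinoma, a log2 fold change of 0.53 (SE 0.18, adjusted p = 0.271). For Orc6 the papilloma values were 5.98 and 5.91 in GOF papilloma, against 5.72 and 6.14 in control papilloma, a log2 fold change of 0.02 (SE 0.18, adjusted p = 0.984), with the GOF arrays between the controls. Orc1, the largest subunit of that complex, was below background on both control carcinoma arrays and above it on both KO arrays, a difference of at least 0.40 on the log2 scale (adjusted p = 0.223). In papilloma Orc1 was below background in both groups. Cdt1, the partner of Cdc6 in loading, had log2 fold changes of 0.34 (SE 0.16) in the KO and 0.02 (SE 0.16) in GOF papilloma.

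Of the polymerase and clamp genes 10 of 10 were separated in the KO (23.8% of all genes), with a median log2 fold change of 0.77. In GOF papilloma 3 of 10 were separated, a share like the 27.3% of all genes, with a median of 0.20. Pola1 stood at 7.51 and 8.04 in KO carcinoma, against 6.55 and 6.60 in control carcinoma, a log2 fold change of 1.20 (SE 0.21, adjusted p = 0.122), or 2.3-fold, the largest of the 36 genes in the KO. In papilloma it stood at 3.96 and 3.89 in GOF papilloma, against 3.61 and 3.96 in control papilloma, a log2 fold change of 0.15 (SE 0.21, adjusted p = 0.815), with the groups overlapping. Pole, the catalytic subunit of polymerase epsilon on the leading strand, stood at 6.88 and 6.99 in KO carcinoma, against 5.74 and 5.88 in control carcinoma, a log2 fold change of 1.12 (SE 0.21, adjusted p = 0.128), or 2.18-fold. In papilloma Pole stood at 3.50 and 2.89 in GOF papilloma, against 3.37 and 3.41 in control papilloma, a log2 fold change of -0.19 (SE 0.21, adjusted p = 0.734), with GOF replicate 2 below background and under both controls. Pole2, the second subunit of that polymerase, had log2 fold changes of 1.06 (SE 0.32, adjusted p = 0.238) in the KO and 0.48 (SE 0.32, adjusted p = 0.536) in GOF papilloma.

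Prim1, the catalytic subunit of primase, had log2 fold changes of 0.89 (SE 0.18, adjusted p = 0.141) in the KO and 0.41 (SE 0.18, adjusted p = 0.325) in GOF papilloma. Pold2, an accessory subunit of polymerase delta, stood at 9.35 and 8.64 in KO carcinoma, against 8.16 and 8.02 in control carcinoma, a log2 fold change of 0.91 (SE 0.24, adjusted p = 0.2). For Pold2 the papilloma values were 7.40 and 7.11 in GOF papilloma, against 6.35 and 6.25 in control papilloma, a log2 fold change of 0.96 (SE 0.24, adjusted p = 0.123). Pold2 reached 1.5-fold in all 4 array pairs of papilloma and was clear of the controls in carcinoma too. Pold1, the catalytic subunit of the same enzyme, had log2 fold changes of 0.44 (SE 0.24) in the KO and 0.05 (SE 0.24) in GOF papilloma, where it lay near background. The carcinoma groups of Pold1 were separated by a narrow gap of 0.034. Pcna, the sliding clamp and a common marker of S phase, had log2 fold changes of 0.29 (SE 0.16, adjusted p = 0.505) in the KO and -0.11 (SE 0.16, adjusted p = 0.83) in GOF papilloma, with separated groups in carcinoma and overlapping ones in papilloma.

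Of the clamp loader subunits, Rfc5 stood at 8.72 and 8.77 in KO carcinoma, against 8.04 and 8.13 in control carcinoma, a log2 fold change of 0.66 (SE 0.27, adjusted p = 0.342). For Rfc5 the papilloma values were 5.14 and 5.48 in GOF papilloma, against 3.98 and 4.78 in control papilloma, a log2 fold change of 0.93 (SE 0.27, adjusted p = 0.155), separated in both. Rfc4 had log2 fold changes of 0.65 (SE 0.16, adjusted p = 0.187) in the KO and -0.07 (SE 0.16, adjusted p = 0.906) in GOF papilloma. Rfc3 had log2 fold changes of 0.66 (SE 0.22, adjusted p = 0.269) in the KO and 0.24 (SE 0.22, adjusted p = 0.668) in GOF papilloma. The loader subunits had like values in the KO, and in papilloma only Rfc5 of the 3 was separated.

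The lagging strand and fork genes had medians of 0.68 in the KO and 0.71 in GOF papilloma, with 4 and 3 of 5 separated. Tipin, which with Timeless steadies the fork, stood at 5.22 and 4.73 in GOF papilloma, against 3.99 and 3.87 in control papilloma, a log2 fold change of 1.05 (SE 0.22, adjusted p = 0.0793), or 2.07-fold, the largest of the 36 genes in papilloma and the smallest adjusted p among them. In carcinoma Tipin stood at 8.03 and 8.28 in KO carcinoma, against 7.51 and 7.14 in control carcinoma, a log2 fold change of 0.83 (SE 0.22, adjusted p = 0.195). Its partner Timeless stood at 7.44 and 7.76 in KO carcinoma, against 6.26 and 6.87 in control carcinoma, a log2 fold change of 1.03 (SE 0.32, adjusted p = 0.244). For Timeless the papilloma values were 4.14 and 3.43 in GOF papilloma, against 3.24 and 3.67 in control papilloma, a log2 fold change of 0.33 (SE 0.32, adjusted p = 0.69). Timeless was separated in carcinoma, whereas its papilloma groups overlapped.

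Rpa2, a subunit of the protein that coats single-stranded DNA, stood at 7.96 and 8.54 in KO carcinoma, against 7.21 and 7.93 in control carcinoma, a log2 fold change of 0.68 (SE 0.30, adjusted p = 0.38). For Rpa2 the papilloma values were 5.59 and 5.56 in GOF papilloma, against 4.64 and 5.003 in control papilloma, a log2 fold change of 0.75 (SE 0.30, adjusted p = 0.275). In carcinoma the gap for Rpa2 was narrow, as KO replicate 1 lay just above control replicate 2. Lig1, the ligase that seals the fragments, had a log2 fold change of 0.18 (SE 0.32) in the KO, with overlapping groups, and 0.71 (SE 0.32) in GOF papilloma, with separated ones. Fen1, the nuclease that trims their flaps, had log2 fold changes of 0.40 (SE 0.20) in the KO and -0.01 (SE 0.20) in GOF papilloma, where it lay near background.

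The nucleotide supply genes had the highest class median in GOF papilloma, 0.85, with 4 of 5 separated, and a median of 0.54 in KO carcinoma, with 3 of 5 separated. Tk1 stood at 6.93 and 6.51 in GOF papilloma, against 5.91 and 5.99 in control papilloma, a log2 fold change of 0.77 (SE 0.17, adjusted p = 0.0971), or 1.7-fold. In carcinoma Tk1 stood at 8.96 and 8.99 in KO carcinoma, against 8.04 and 8.24 in control carcinoma, a log2 fold change of 0.84 (SE 0.17, adjusted p = 0.141), or 1.79-fold. The groups were clear of each other in both tumour types. Rrm1, the large subunit of ribonucleotide reductase, stood at 8.06 and 7.76 in GOF papilloma, against 6.97 and 7.03 in control papilloma, a log2 fold change of 0.91 (SE 0.32, adjusted p = 0.225). For Rrm1 the carcinoma values were 9.71 and 10.51 in KO carcinoma, against 9.52 and 10.18 in control carcinoma, a log2 fold change of 0.26 (SE 0.32, adjusted p = 0.821). Rrm1 was separated in papilloma, and in carcinoma KO replicate 1 lay below control replicate 2.

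Rrm2, the small subunit that is made in S phase, stood at 8.30 and 7.82 in GOF papilloma, against 6.79 and 7.63 in control papilloma, a log2 fold change of 0.85 (SE 0.31, adjusted p = 0.238). For Rrm2 the carcinoma values were 10.38 and 10.75 in KO carcinoma, against 9.98 and 9.90 in control carcinoma, a log2 fold change of 0.62 (SE 0.31, adjusted p = 0.438). Tyms, thymidylate synthase, stood at 7.80 and 7.48 in GOF papilloma, against 6.22 and 7.32 in control papilloma, a log2 fold change of 0.87 (SE 0.34, adjusted p = 0.275). For Tyms the carcinoma values were 10.15 and 10.30 in KO carcinoma, against 9.81 and 9.55 in control carcinoma, a log2 fold change of 0.54 (SE 0.34, adjusted p = 0.561). Both genes were separated in both tumour types, with control papilloma replicate 2 close under the GOF arrays. Dut, which keeps uracil out of DNA by breaking down dUTP, had log2 fold changes of 0.50 (SE 0.32) in the KO and 0.44 (SE 0.32) in GOF papilloma, with overlapping groups in each.

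Ccne1, the cyclin that drives Cdk2 at the start of S phase, stood at 5.01 and 4.78 in GOF papilloma, against 4.26 and 3.84 in control papilloma, a log2 fold change of 0.85 (SE 0.18, adjusted p = 0.0903), or 1.8-fold. In carcinoma it stood at 7.13 and 7.35 in KO carcinoma, against 7.14 and 7.07 in control carcinoma, a log2 fold change of 0.13 (SE 0.18, adjusted p = 0.856), with KO replicate 1 between the controls. Uhrf1, which carries DNA methylation over to the new strand, stood at 9.45 and 9.93 in KO carcinoma, against 8.75 and 9.001 in control carcinoma, a log2 fold change of 0.81 (SE 0.24, adjusted p = 0.226), or 1.76-fold. For Uhrf1 the papilloma values were 6.08 and 5.57 in GOF papilloma, against 5.73 and 5.86 in control papilloma, a log2 fold change of 0.03 (SE 0.24, adjusted p = 0.98), with the GOF arrays on either side of the controls.

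Whether the KO effect differed from the GOF effect was tested per gene as the difference between the 2 log2 fold changes. Over the 36 genes this difference was positive for 26, where 49.9% of all genes were, and its median was 0.31. An unadjusted limma p under 0.05 was found for 5 of the 36, a share like the 14.2% of all genes. After adjustment 0 of the 36 passed, where 0.0143% of all genes were called higher and 0.0646% lower. The 5 are given as estimates only. Pole had a difference of 1.32 (SE 0.30, limma adjusted p = 0.138), which includes the GOF array below background, without which its GOF effect was 0.11. Pola1 had a difference of 1.05 (SE 0.29, limma adjusted p = 0.212), with papilloma values of 3.61 to 3.96 not far above background (3.09 to 3.33). Rfc4 had a difference of 0.71 (SE 0.23, limma adjusted p = 0.257). The estimate for Ccne1 had the opposite sign, -0.72 (SE 0.26, limma adjusted p = 0.303). That for Orc1 was 0.50 as fitted (SE 0.20, limma adjusted p = 0.333), with all papilloma and both control carcinoma arrays below background. By class the median difference was 0.51 for origin licensing, where Cdc6 and Orc1 were below background in papilloma. It was 0.44 for polymerases and clamp, 0.24 for the helicase and 0.03 for Ccne1 with Uhrf1. For lagging strand and fork it was -0.08 and for nucleotide supply -0.23. Across the 36 genes the 2 log2 fold changes were nearly unrelated (Pearson 0.06, Spearman 0.13, a description over genes that share the arrays).

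**Figure D4:**
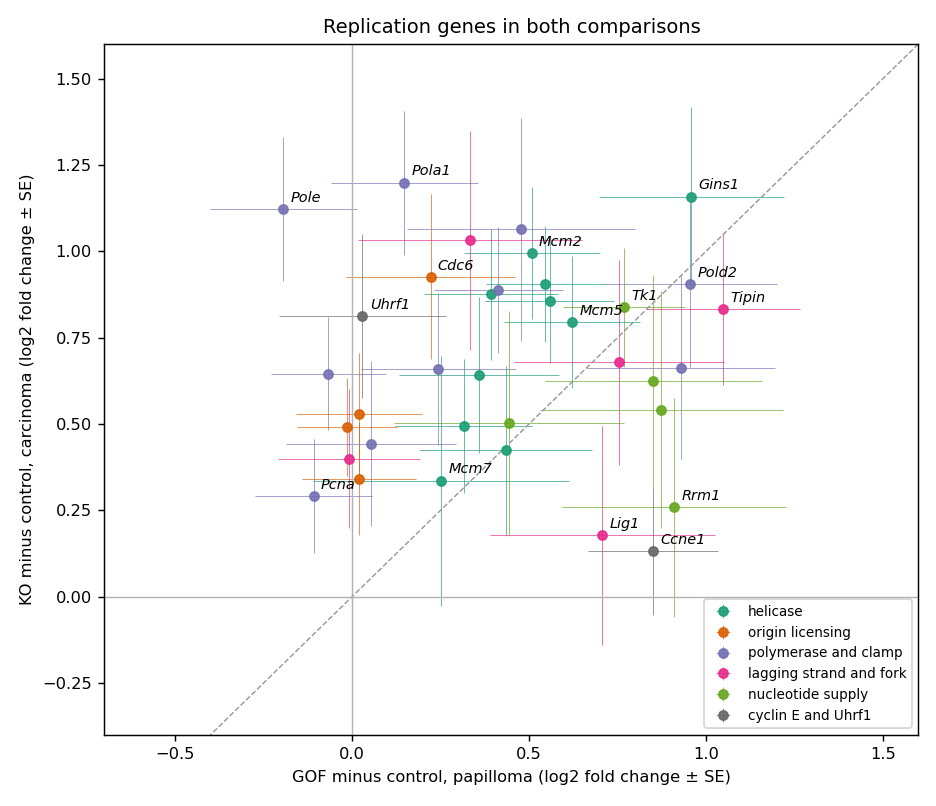
Log2 fold change of each of the 36 replication genes in GOF papilloma (horizontal axis) and KO carcinoma (vertical axis), with bars of 1 standard error of the limma fit and colours by class. The dashed line marks equal changes. All 36 points lie above 0 on the vertical axis and 31 lie right of 0 on the horizontal one, with Pole at the upper left and Rrm1 and Ccne1 at the lower right.

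A further list covered the same process. Of its 48 genes 41 were tested. Both KO arrays lay above both controls for 31 of them (23.8% of all genes), with 36 positive and a median of 0.48. In GOF papilloma 18 of 41 were separated upwards (27.3% of all genes) and 6 downwards (21.3% of all genes). There 32 were positive, with a median of 0.18. Asf1b, a histone chaperone that works behind the fork, rose in GOF papilloma by 1.02 (SE 0.16, adjusted p = 0.0447) and was the only one of the 41 past the test there, and none passed in the KO. Without GOF replicate 1 the adjusted p of Asf1b was 0.272. Cdc7, the kinase that fires licensed origins, had log2 fold changes of 1.07 (SE 0.18, adjusted p = 0.122) in the KO and 0.02 (SE 0.18, adjusted p = 0.979) in GOF papilloma. Gmnn, the inhibitor of Cdt1, had log2 fold changes of 1.09 (SE 0.21, adjusted p = 0.13) and 0.35 (SE 0.21, adjusted p = 0.463), in the same order, and Rfc1, the large clamp loader subunit, had log2 fold changes of 1.07 (SE 0.19, adjusted p = 0.122) and 0.47 (SE 0.19, adjusted p = 0.277). Wdhd1, which ties polymerase alpha to the helicase, had a log2 fold change of 0.98 in the KO, and in papilloma it was below background on both GOF arrays and 1 control array. Usp1, a deubiquitinase that acts on Pcna, had log2 fold changes of 0.87 in the KO and 0.94 in GOF papilloma. Pola2 had log2 fold changes of 0.47 in the KO and 0.51 in GOF papilloma, and Prim2 had log2 fold changes of 0.45 and 1.05, in that order.

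Of 29 genes that control entry into S phase 28 were tested, with medians of 0.23 in the KO and 0.27 in GOF papilloma, and none passed the test in either. E2f7, a repressor of the E2F family that is itself a target of E2F, had log2 fold changes of 1.03 (SE 0.18, adjusted p = 0.122) in the KO and 0.96 (SE 0.18, adjusted p = 0.0655) in GOF papilloma, while its relative E2f8 had log2 fold changes of 0.22 and 0.88. Cdkn2b, the inhibitor p15 of the cyclin D kinases, had log2 fold changes of -1.63 (SE 0.21, adjusted p = 0.11) in the KO and 0.09 (SE 0.21, adjusted p = 0.897) in GOF papilloma. Ccnd2, a D cyclin, had log2 fold changes of 0.62 (SE 0.43, adjusted p = 0.6) in the KO and -1.94 (SE 0.43, adjusted p = 0.0941) in GOF papilloma. Skp2, which marks p27 for destruction, had a log2 fold change of 0.79 in the KO and was below background on all papilloma arrays. Tfdp1, the partner of the E2F factors, had log2 fold changes of 0.72 in the KO and 0.34 in GOF papilloma, and Cdk2 had log2 fold changes of 0.42 and 0.75, in that order.

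Genes of G2 and mitosis, the later phases of the cycle, were read in the same way. All 19 tested of 20 had a positive log2 fold change in both comparisons, with medians of 0.72 in the KO and 0.71 in GOF papilloma. Both KO arrays lay above both controls for 16 of 19 (23.8% of all genes) and both GOF arrays for 17 of 19 (27.3% of all genes). None passed the test. Cdc20, an activator of the anaphase-promoting complex, had log2 fold changes of 0.79 (SE 0.34, adjusted p = 0.371) in the KO and 1.48 (SE 0.34, adjusted p = 0.0994) in GOF papilloma. Birc5, or survivin, had log2 fold changes of 0.996 (SE 0.18, adjusted p = 0.122) and 0.92 (SE 0.18, adjusted p = 0.0671), and Bub1, a kinase of the spindle checkpoint, had log2 fold changes of 1.10 (SE 0.23, adjusted p = 0.141) and 0.36 (SE 0.23, adjusted p = 0.493), each in the same order. Cenpa had log2 fold changes of 0.85 and 1.05, Tpx2 had log2 fold changes of 0.82 and 0.54, and Ccnb2 had log2 fold changes of 0.75 and 0.71. Mki67, the gene of the proliferation marker Ki-67, stood at 9.06 and 9.94 in KO carcinoma, against 8.41 and 9.32 in control carcinoma, a log2 fold change of 0.63 (SE 0.38, adjusted p = 0.528). For Mki67 the papilloma values were 7.69 and 7.59 in GOF papilloma, against 7.01 and 7.31 in control papilloma, a log2 fold change of 0.49 (SE 0.38, adjusted p = 0.605).

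Beside these genes, the markers of other cell types differed between the papilloma groups. The 12 macrophage markers had a mean of 5.55 and 6.66 in GOF papilloma, against 3.27 and 3.18 in control papilloma, 12 of 12 lay above background on both GOF arrays and 6 of 12 on both controls, and 3 rose past the test (C1qc, Ctss and Lyz2). The 9 endothelial markers tested had means of 5.31 and 5.46 in GOF papilloma, against 3.49 and 3.37 in control papilloma, and 5 rose (Cdh5, Egfl7, Emcn, Flt1 and Plvap). Of 7 dendritic cell markers H2-Aa, H2-Ab1 and H2-Eb1 rose, and Epcam fell by 1.53 (adjusted p = 0.0372) among 11 keratinocyte markers, whose mean was 10.39 and 10.29 in GOF papilloma, against 10.64 and 10.60 in control papilloma. The dendritic cell markers had means of 6.12 and 6.71 in GOF papilloma, against 4.39 and 4.60 in control papilloma. The T cell markers had means of 3.79 and 3.66 in GOF papilloma, against 3.64 and 3.60 in control papilloma, and the fibroblast markers 8.60 and 8.95 in GOF papilloma, against 8.62 and 7.43 in control papilloma. The genes of the dissociation stress response had means of 9.90 and 9.76 in GOF papilloma, against 10.35 and 10.20 in control papilloma. The replication genes had means of 5.95 and 5.72 in GOF papilloma, against 5.29 and 5.52 in control papilloma. In GOF papilloma the array with the higher macrophage level (replicate 2) had the lower replication level. The macrophage means of control papilloma lay near background, so their order is not read. For control carcinoma the macrophage means were 5.54 and 7.11, and the replication means were level (7.998 and 8.002). In KO carcinoma replicate 2 was the higher for both, with 5.70 against 5.40 for macrophage markers and 8.79 against 8.57 for replication genes. The part of other cell types in the replication result was not tested.

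In carcinoma none of these markers passed the test, and control replicate 2 stood apart. The macrophage markers had means of 5.40 and 5.70 in KO carcinoma, against 5.54 and 7.11 in control carcinoma, the endothelial markers 5.06 and 5.18 in KO carcinoma, against 5.30 and 6.11 in control carcinoma and the fibroblast markers 6.38 and 7.21 in KO carcinoma, against 6.96 and 8.69 in control carcinoma. The keratinocyte markers had means of 11.39 and 11.49 in KO carcinoma, against 11.57 and 11.44 in control carcinoma, and the stress genes 10.84 and 10.96 in KO carcinoma, against 10.99 and 11.15 in control carcinoma. Dendritic and T cell markers had means of 6.06 and 5.99 in KO carcinoma, against 6.03 and 6.88 in control carcinoma, and 4.66 and 4.89 in KO carcinoma, against 4.88 and 5.35 in control carcinoma. The replication genes had means of 8.57 and 8.79 in KO carcinoma, against 7.998 and 8.002 in control carcinoma, so the 2 control arrays were level for them. Without control replicate 2 the median log2 fold change of the 36 genes was 0.64, with both KO arrays above the remaining control for 33 of 36, and without control replicate 1 it was 0.68.

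**Figure D5:**
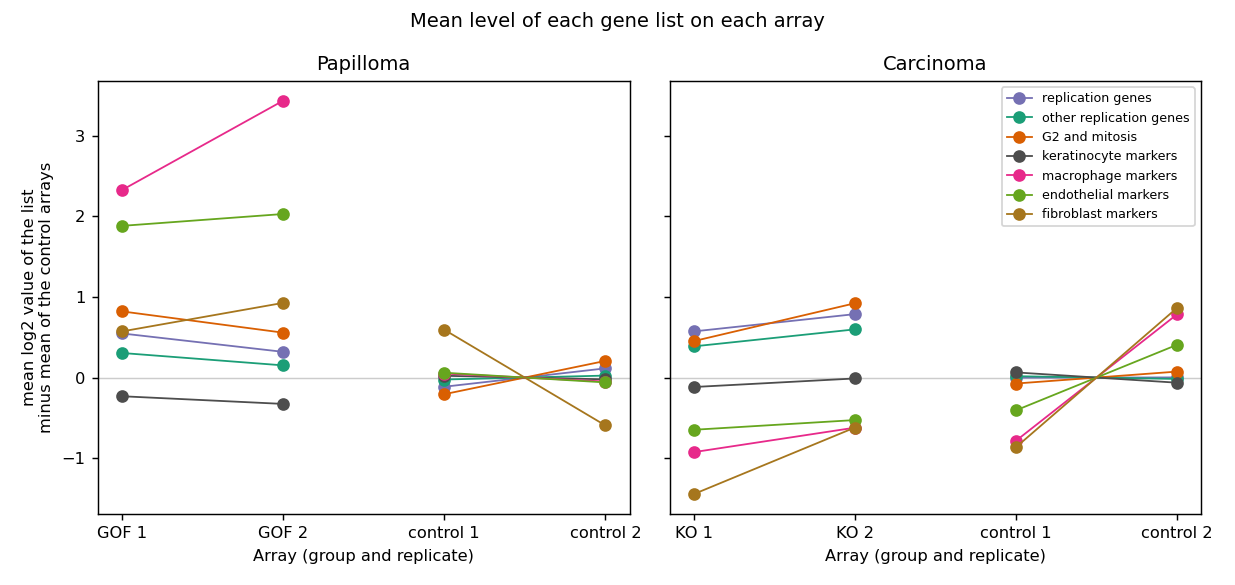
Mean log2 value of each gene list on each array minus the mean of the 2 control arrays of the same tumour type (vertical axis), for papilloma on the left and carcinoma on the right. Points are arrays and lines join the 2 arrays of a group. The replication genes and the mitosis genes lie above 0 on both GOF and both KO arrays, while macrophage and endothelial markers lie above 0 in GOF papilloma and below it in KO carcinoma, with control carcinoma replicate 2 the highest there.

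Between replicates the replication genes often leaned to the same array. Of the 36, 29 were higher on GOF replicate 1 than on replicate 2, 26 were higher on control papilloma replicate 2 than on replicate 1, and 29 were higher on KO replicate 2 than on replicate 1. In control carcinoma 19 were higher on replicate 1 and 17 on replicate 2. The share of all genes with each of these orders was not counted. The 36 genes share the same arrays, so counts over them are not 36 separate observations. The SD between the 2 arrays had a median over the 36 genes of 0.210 in GOF papilloma, against 0.214 in control papilloma, and of 0.205 in KO carcinoma, against 0.122 in control carcinoma, where all genes had 0.118, 0.152, 0.125 and 0.143 in that order. Without GOF replicate 2 the papilloma median was 0.59 and without control papilloma replicate 1 it was 0.32, the ends of its range when each array was left out.

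Of the 37 genes 19 had more than 1 probe set, 61 in all. Of the 24 further probe sets of tested genes, 10 were above background on all 8 arrays, and these 10 had the sign of the one used in both comparisons. Another 6 were above background on no array, so their signs are not given. A second probe set of Mcm7 had 0.72 in the KO, where the one used had 0.34, and a second one of Rfc4 had 1.20, where the one used had 0.65, and was above background on 4 of 8 arrays. Among the 10, sizes in GOF papilloma could differ although signs did not. A second probe set of Rpa2 had 0.11 there with overlapping groups, where the one used had 0.75 and was separated. A second one of Uhrf1 had 0.34 with separated groups, where the one used had 0.03 with overlapping groups.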

How the data were processed

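The values are log2 intensities that the authors made with the RMA algorithm and deposited as 1 table, per the labels, and the submitters' processing notes name RMA and affy without versions. Papilloma and carcinoma columns carry 5 and 4 decimals and differ in scale, so they were treated as normalized separately. Of 45141 probe sets, 28898 had 1 gene symbol, 551 several and 15588 none (104 of all are controls). A gene was its brightest single-gene probe set, kept where at least 2 of 8 arrays exceeded the median of all values. An array's background was set to the brightest of 44 controls that match no mouse sequence.

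The test was limma's (version 3.58.1, R 4.3.3; lmFit, then eBayes; 1 mean per group, all 8 arrays, 4 residual and 2.67 prior degrees of freedom), with Benjamini-Hochberg adjustment over 13939 genes and a threshold of 0.05. The fit was run on simulated data with noise drawn separately for each gene. That run did not cover a lean of many genes to the same array. An exact permutation test of 2 arrays against 2 cannot go below p = 0.333 and was not used. The number of arrays limits the precision. The members and lists were chosen with earlier results of these data known. Every one of the 37 replication genes is named. Array values are given for Mcm2 to Mcm7 and, per class and comparison, the 2 genes of largest change. Of the other lists, genes past the test or the 4 of smallest p per comparison are named, and of the cell type markers those past the test. The cell type markers were lists for keratinocytes, macrophages, dendritic cells, T cells, endothelium and fibroblasts. Alternatives changed the filter, normalization, probe set choice, variance prior, arrays in the fit, replicate block and each array left out. Levels between tumour types were not compared.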

Additional observations from a re-analysis of the deposited data

Results flagged for a closer look

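None of the 36 replication genes was flagged. Among the genes given for comparison, 3 had a KO effect that differed from the GOF effect past the limma threshold in the test of that difference. For Nr2f2, the manipulated gene itself, the KO effect minus the GOF effect was -11.92 on the log2 scale as fitted (limma adjusted p = 6.94e-06). That value is not a measured difference, since both control papilloma arrays and KO replicate 1 were below background, and the GOF effect alone was at least 8.33. For Lyz2, a macrophage marker, it was -7.18 as fitted (limma adjusted p = 0.0312), with both control papilloma arrays and 1 of 2 KO arrays below background and a GOF effect of at least 5.07. For Flt1, an endothelial marker, it was -2.14 (limma adjusted p = 0.0405). The groups hold 2 arrays each, so no array was checked as an outlier.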

How the results depend on the processing

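No replication gene passed the test under any setting in either comparison, with lowest adjusted p-values of 0.0554 in GOF papilloma and 0.0607 in the KO. The median log2 fold change of the replication genes stayed positive, at 0.32 to 0.44 in GOF papilloma and 0.66 to 0.73 in the KO under the other settings, and at 0.32 to 0.59 and 0.61 to 0.76 with each array left out. Genes separated upwards numbered 20 to 23 in GOF papilloma and 29 to 34 in the KO under the other settings. Over all genes, calls in GOF papilloma numbered 169, and 108 after quantile normalization. Calls in the KO numbered 2, and 0 with the mean of probe sets, 32 with a trended and robust prior and 0 with the carcinoma arrays alone. Calls for the difference between the effects numbered 11, and 41 with a filter within each tumour type, 36 with the stricter filter, 6 with the mean of probe sets, 18 without probe sets ending in _s_at or _x_at, and 68 with the trended prior. With each array left out they ranged from 1 to 297 in GOF papilloma, from 0 to 122 in the KO and from 1 to 274 for the difference. In GOF papilloma the lowest counts came without GOF replicate 2 (1) or replicate 1 (2), and 13 were called without control papilloma replicate 2, 75 without control papilloma replicate 1, 61 without either KO array and 297 without either control carcinoma array. In the KO 122 were called without control carcinoma replicate 1 and 4 without replicate 2. The replicate numbers share no stated source, and deviations of same-numbered arrays correlated at 0.0018 in papilloma and 0.13 in carcinoma. With a replicate block, 3 genes were called in GOF papilloma, 0 in the KO and 3 for the difference, on fewer residual degrees of freedom. Where not said otherwise the cause was not tested.

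Some genes changed sign in GOF papilloma. After quantile normalization Mcm7 had -0.039, Orc1 0.0049, Orc6 -0.046, Cdt1 -0.039, Fen1 0.037 and Uhrf1 -0.048, and with arrays centred on their medians Orc1 had 0.00094 and Fen1 0.0054. With each array left out, GOF papilloma fold changes ran from -0.20 to 0.70 for Mcm7, from -0.080 to 0.054 for Orc1, from -0.19 to 0.23 for Orc6, from -0.14 to 0.17 for Cdt1, from -0.026 to 0.32 for Pola1, from -0.50 to 0.11 for Pole, from -0.15 to 0.26 for Pold1, from -0.28 to 0.068 for Pcna, from -0.24 to 0.10 for Rfc4, from -0.28 to 0.26 for Fen1, from -0.026 to 0.69 for Timeless, from -0.22 to 0.28 for Uhrf1, from -0.12 to 0.16 for Cdc7 and from -0.00050 to 0.18 for Cdkn2b. In the KO they ran from -0.20 to 0.55 for Lig1, from -0.14 to 0.66 for Rrm1 and from -0.31 to 0.11 for Epcam. Asf1b, Epcam and the marker genes past the test in GOF papilloma each lost their call under some settings, as did Nr2f2 in the KO. Nr2f2 kept its call in GOF papilloma under every setting tried. With 2 arrays a group, genes whose signal lay near background (Orc1, Cdc6, Pole, Pold1 and Fen1 in papilloma) allow the least to be said. Pola1, Cdc45, Pole2 and Timeless were above background in papilloma but low, with lowest values of 3.61, 3.50, 3.27 and 3.24.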
